A study of Mus musculus with 6 samples.

Results

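The genes of major histocompatibility complex (MHC) class II presentation are described here in blood-forming cells of mouse bone marrow. The 10 genes were chosen by name: the class II chain genes H2-Aa, H2-Ab1 and H2-Eb1, the invariant chain gene Cd74, the peptide-editing genes H2-DMa, H2-DMb1, H2-DMb2, H2-Oa and H2-Ob, and the transactivator gene Ciita. All 10 were among the 25033 gene symbols listed, and all 10 were among the 12978 with enough reads to be tested. The cells were sorted as GFP+ haematopoietic stem cells (HSCs) from the marrow of recipient mice. The control group had received HSCs treated with a control RNA, and the inhibitor group HSCs treated with an inhibitor of miR-31-5p. Both groups were of strain C57BL/6J with a labelled age of 6 months, and each had 3 RNA-seq libraries. Nothing in the labels ties the 3 libraries of a group to different animals, so the p-values rest on library-to-library spread alone, which may be technical.

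MHC class II molecules are heterodimers of an alpha and a beta chain that show peptides from the endosomal route to CD4+ T cells. The invariant chain guides newly made dimers to endosomes and leaves a fragment in the peptide groove. H2-DM removes that fragment and helps to load other peptides, and H2-O restrains H2-DM. Transcription of these genes depends on CIITA, a coactivator that binds no DNA itself and is held at the promoters by RFX, CREB and NF-Y proteins bound to the X and Y boxes. Class II genes are highest in dendritic cells, B cells and activated macrophages, and are also transcribed at lower levels in stem and progenitor cells of the marrow.

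The promoter stretches with the letters of the X and Y boxes are shown as background to the proteins named above. Whether these letters go with a change in level was not tested. Promoter sequences were taken from RefSeq on GRCm38.p6, and 7 of the 10 genes had an entry. H2-Ab1, Cd74 and Ciita had none. In the 250 bases before each start, AAC (a part of many X boxes) followed after 24 to 32 bases by ATTGG (the Y box core) was sought on the sense strand, a pattern chosen after the sequences had been read. It occurred in 6 of these 7 genes and not in either of the start regions of H2-DMa. It also occurred in 2.19% of all 32851 promoter entries, and in 4.34% when either strand was allowed, while ATTGG on either strand occurred in 33.8%. The capitals mark AAC and ATTGG, and all 6 stretches lie on chromosome 17 (H2-Aa on the minus strand and the others on the plus strand), at chr17:34287857-34287914 for H2-Aa, chr17:34305766-34305822 for H2-Eb1, chr17:34153087-34153144 for H2-DMb1, chr17:34145116-34145173 for H2-DMb2, chr17:34092293-34092350 for H2-Oa and chr17:34238808-34238862 for H2-Ob.
H2-Aa: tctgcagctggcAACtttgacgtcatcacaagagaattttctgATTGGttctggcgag
H2-Eb1: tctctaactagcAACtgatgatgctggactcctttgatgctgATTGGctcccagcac
H2-DMb1: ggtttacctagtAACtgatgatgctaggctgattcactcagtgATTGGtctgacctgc
H2-DMb2: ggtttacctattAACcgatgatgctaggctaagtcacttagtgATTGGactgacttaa
H2-Oa: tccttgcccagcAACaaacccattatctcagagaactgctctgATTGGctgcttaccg
H2-Ob: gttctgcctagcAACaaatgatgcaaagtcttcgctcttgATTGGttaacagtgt
The gap between AAC and ATTGG was 28 bases in H2-Aa, H2-DMb1, H2-DMb2 and H2-Oa, 27 in H2-Eb1 and 25 in H2-Ob, counted from the first AAC in range (H2-Oa holds 2 such AAC, of which the second is in lower case), and ATTGG ended 38 to 85 bases before the annotated start.

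The inhibited microRNA is shown for its seed (bases 2 to 8, in capitals), the part that pairs with target transcripts, in the RefSeq sequence on GRCm38.p6, at chr4:88910614-88910635 on the minus strand.
miR-31-5p: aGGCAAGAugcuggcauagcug
The matching site, TCTTGCC, was sought in 3′ UTRs (GENCODE M21, the longest for every gene). None of the 10 class II genes held it, in 3′ UTRs of 228 bases (H2-Oa) to 2676 bases (Ciita). Of the 12260 tested genes with a 3′ UTR in that annotation, 13.2% held it. A missing match says only that these letters are absent from these stretches.

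Libraries held 16873188 to 21245861 counts. Each library was used as a replicate. Pairs of libraries of 1 group differed by more than counting noise (chi-square per degree of freedom 3.10 to 17.66, Rn45s included). That value does not tell separate animals from separate preparations of the same cells. Control library 1 stood apart from the other libraries on the second principal component, which held 9.48% of the variance. The ribosomal precursor Rn45s had 20039, 3667 and 61656 counts in the controls, in order, against 1784 to 3145 in inhibitor libraries. The labelled cell type was HSC. Of its listed markers, Procr, Slamf1 and Mecom, chosen after their values were seen, were low in the control group, at 1.06 ± 0.113, 5.22 ± 0.524 and 0.636 ± 0.161 CPM (mean ± SD, n = 3). In the inhibitor group Procr was at 7.55 ± 1.02 and Slamf1 at 16.9 ± 3.36 CPM, log2 changes of 2.82 ± 0.21 and 1.70 ± 0.16 (± SE, edgeR quasi-likelihood adjusted p = 3.76e-08 and 4.41e-07), while Mecom did not pass (-0.70 ± 0.48). Markers that progenitors also express were high in the controls, with Kit at 401.9 ± 20.7, Cd34 at 362.8 ± 12.7 and Flt3 at 191.3 ± 16.9 CPM, and the monocyte and macrophage gene Csf1r at 439 ± 6.45 CPM. CPM here are counts scaled to library size and by TMM, a factor for library composition.

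All 10 class II genes were higher in the inhibitor group. The class II chain genes and Cd74 rose 1.52- to 1.72-fold, H2-DMb2, H2-Oa, H2-Ob and Ciita 1.37- to 1.55-fold, and H2-DMa and H2-DMb1 1.14- and 1.16-fold. Together their reads made up 0.0912, 0.0947 and 0.0867% of the counts of control libraries 1 to 3, and 0.140, 0.139 and 0.141% of those of inhibitor libraries 1 to 3. In bulk RNA, more cells of a type and more RNA per cell cannot be told apart. Each gene passed an adjusted p of 0.05 (edgeR quasi-likelihood, Benjamini-Hochberg over all tested genes). Of all tested genes 40.5% passed in either direction and 20.4% passed as higher. In each of the 10 genes the 3 inhibitor libraries lay above the 3 control libraries, as they did for 25.9% of all tested genes. The median log2 change (inhibitor minus control) was 0.57 over the 10 genes and -0.01 over all tested genes. Of the 10 genes, 8 lay above the 75th percentile of all tested genes (0.23), and H2-Ab1 and Cd74 also above the 90th (0.64). All 10 were also higher with RLE size factors and with library sizes that left out the most abundant genes. The number that passed was 7 to 10 when 1 library was left out, and 8 without control libraries 1 and 3 together. That last setting leaves 1 control, so its spread comes from the inhibitor libraries alone and the lone control is assumed to vary as they do.

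**Figure D1:**
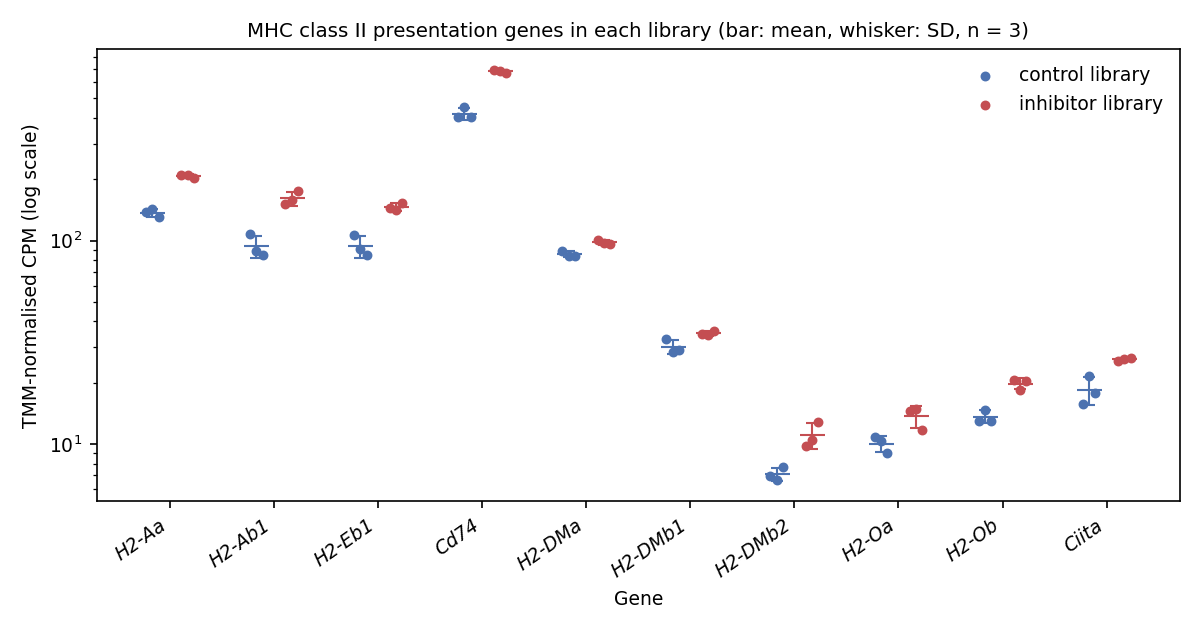
Level of each class II gene in each library, as TMM-normalised CPM on a log axis, with the mean (bar) and SD (whisker) of 3 control and 3 inhibitor libraries. In every gene the 3 inhibitor libraries sit above the 3 control libraries, with the largest folds between group means in H2-Ab1 and Cd74 and the smallest in H2-DMa and H2-DMb1.

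H2-Aa encodes the alpha chain of I-A, the class II molecule that C57BL/6 mice show on the cell surface (mm10 chromosome 17, 34282744 to 34287823). Its level was 138.3, 142.9 and 130.2 CPM in control libraries 1 to 3, and 210.3, 209.5 and 203.5 CPM in inhibitor libraries 1 to 3. Both groups were tight, and the lowest inhibitor library lay well above the highest control. H2-Aa rose by 0.60 ± 0.06 on the log2 scale (± SE, edgeR quasi-likelihood adjusted p = 5.17e-07).

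H2-Ab1 encodes the beta chain that pairs with it (chromosome 17, 34263227 to 34269418). It was at 107.1, 88.3 and 85.2 CPM in the controls and 150.4, 157.8 and 174.8 CPM in the inhibitor libraries. Control library 1 was the highest control, and inhibitor library 3 the highest of all. The log2 change, 0.78 ± 0.08 (edgeR quasi-likelihood adjusted p = 5.53e-06), was the largest of the 10, and it was 0.89 without control library 1.

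H2-Eb1 encodes the beta chain of I-E (chromosome 17, 34305867 to 34316674). C57BL/6 mice lack a working H2-Ea gene, so this chain has no I-E partner in them. H2-Eb1 reads were present nevertheless, at 106.8, 90.4 and 84.4 CPM in the controls and 143.8, 140.5 and 153.5 CPM in the inhibitor libraries. As for H2-Ab1, control library 1 was the highest control. H2-Eb1 rose by 0.64 ± 0.08 on the log2 scale (edgeR quasi-likelihood adjusted p = 1.22e-05). The symbol H2-Ea-ps had no reads in any of the 6 libraries (0 counts), which allows a level of up to 0.141 to 0.178 CPM, the value of 3 counts (counting error only).

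Cd74, the invariant chain gene, had the highest level of the 10. It was at 405.3, 453.4 and 404.9 CPM in the controls and 690.7, 681.0 and 668.3 CPM in the inhibitor libraries. The inhibitor libraries differed from each other less than the controls did. The log2 change was 0.69 ± 0.06 (edgeR quasi-likelihood adjusted p = 1.74e-07), and it ranged from 0.58 to 0.75 over 14 alternative settings, past the threshold in each. The gene lies at chromosome 18, 60803849 to 60812652. Its 2 listed transcripts were summed by the authors, so isoforms of the invariant chain cannot be told apart.

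H2-DMa and H2-DMb1 had the smallest changes of the 10 genes. H2-DMa, the alpha chain gene of H2-DM (chromosome 17, 34119693 to 34139101), was at 89.0, 84.0 and 84.2 CPM in the controls and 100.9, 97.0 and 95.7 CPM in the inhibitor libraries. The groups did not overlap, but the gap between them was small, and the log2 change was 0.19 ± 0.06 (edgeR quasi-likelihood adjusted p = 0.0158). H2-DMa was no longer past the threshold without control library 3 (edgeR adjusted p = 0.0626) or without inhibitor library 1 (0.0776). The annotated interval of H2-DMa overlaps that of Brd2 on the other strand. Whether counting used strand is not given in the sources used here, and Brd2 had a log2 change of 0.00 ± 0.06.

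The beta chain of H2-DM is encoded by a pair of genes, H2-DMb1 and H2-DMb2, whose coding sequences are identical at 95.9% of 783 aligned bases. The split of reads between them is therefore uncertain. H2-DMb1 (chromosome 17, 34153191 to 34160229) was at 32.8, 28.2 and 29.1 CPM in the controls and 34.6, 34.2 and 36.0 CPM in the inhibitor libraries. The highest control lay just under the lowest inhibitor library. Its log2 change was 0.22 ± 0.08, at the threshold (edgeR quasi-likelihood adjusted p = 0.0495). The call was lost without control library 2 or 3 or any single inhibitor library (edgeR adjusted p = 0.0920 to 0.144), with DESeq2 (adjusted p = 0.0529) and with no filter on low counts (edgeR adjusted p = 0.0559).

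H2-DMb2 (chromosome 17, 34143229 to 34151553) was the less abundant of the pair, at 6.98, 6.65 and 7.66 CPM in the controls and 9.76, 10.4 and 12.8 CPM in the inhibitor libraries. Inhibitor library 3 was the highest, and the inhibitor libraries lay clear of the controls. The log2 change was 0.63 ± 0.14 (edgeR quasi-likelihood adjusted p = 0.0023). Counted together as 1 gene, an alternative chosen after seeing the data, H2-DMb1 and H2-DMb2 had a log2 change of 0.31 ± 0.08 (edgeR quasi-likelihood adjusted p = 0.00559). The summed level was 34.8 to 39.8 CPM in the controls and 44.3 to 48.9 CPM in the inhibitor libraries.

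Both chains of H2-O, the partner that restrains H2-DM, also rose. H2-Oa, the alpha chain gene (chromosome 17, 34092379 to 34095234), was at 10.7, 10.3 and 9.03 CPM in the controls and 14.6, 14.8 and 11.7 CPM in the inhibitor libraries. Inhibitor library 3 came close to the controls. H2-Oa rose by 0.45 ± 0.13 on the log2 scale (edgeR quasi-likelihood adjusted p = 0.0109). It was not past the threshold without control library 3, inhibitor library 1 or inhibitor library 2 (edgeR adjusted p = 0.0508, 0.0537 and 0.0559), or without control libraries 1 and 3 together (0.0645, with a single control and the spread of the inhibitor libraries).

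H2-Ob, the beta chain gene (chromosome 17, 34238905 to 34245908), was at 13, 14.7 and 13.02 CPM in the controls and 20.6, 18.4 and 20.3 CPM in the inhibitor libraries. The inhibitor libraries stood clear of all controls. The log2 change was 0.54 ± 0.10 (edgeR quasi-likelihood adjusted p = 0.000733), past the threshold in each of 14 alternative settings.

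Ciita, which encodes the coactivator on which class II transcription depends (chromosome 16, 10480014 to 10531064), was at 15.8, 21.5 and 17.8 CPM in the controls and 25.5, 26.0 and 26.4 CPM in the inhibitor libraries. The controls were spread and the inhibitor libraries almost equal. The log2 change was 0.50 ± 0.11 (edgeR quasi-likelihood adjusted p = 0.00197). Without control libraries 1 and 3, with control library 2 as the only control and the spread taken from the inhibitor libraries, it was 0.27 (edgeR adjusted p = 0.102). Ciita has several promoters that serve different cell types and interferon-gamma. Its 5 listed transcripts were summed by the authors, so the promoters cannot be told apart, and its interval overlaps that of Dexi. Dexi had 1298 counts over all 6 libraries, where Ciita had 1123 in the controls and 1390 in the inhibitor libraries. Whether reads of Dexi add to those of Ciita was not tested.

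**Figure D2:**
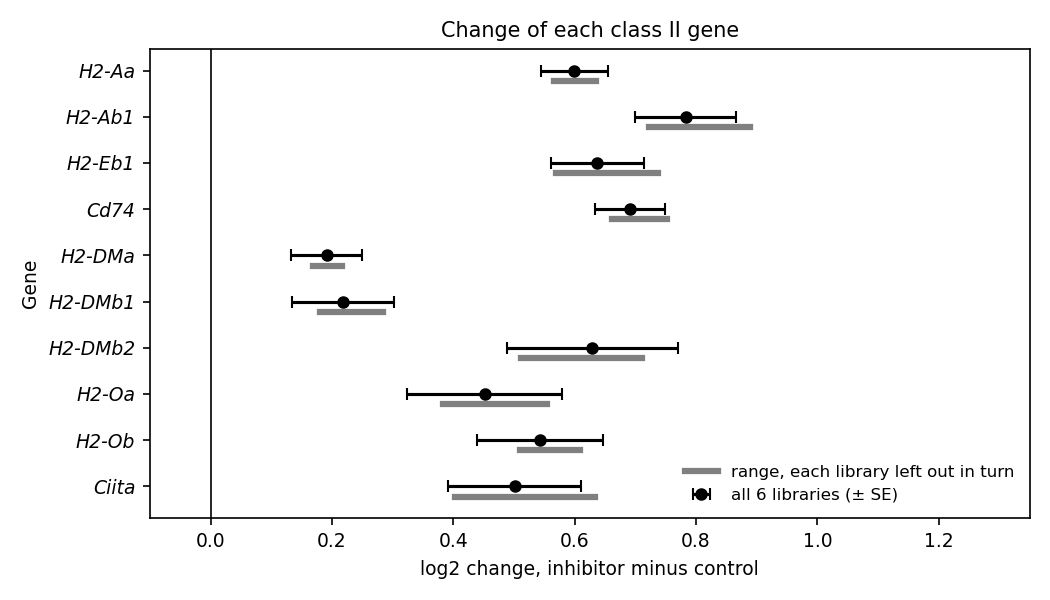
Log2 change of each class II gene, inhibitor minus control, with its SE (black) and the range of values when each of the 6 libraries is left out in turn (grey). All points and ranges lie above 0, with H2-DMa and H2-DMb1 at 0.19 and 0.22 and the other 8 genes between 0.45 and 0.78.

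Levels of different genes can be compared only per length, so CPM were divided by the length of the longest transcript in kilobases. In the control group Cd74 was first, at 344.4 ± 22.8 CPM per kb (mean ± SD, n = 3), followed by H2-Aa at 121.6 ± 5.68, H2-Ab1 at 78.4 ± 9.94, H2-Eb1 at 56.2 ± 6.93 and H2-DMa at 51.7 ± 1.70. H2-DMb1 (23.4 ± 1.90), H2-Oa (9.55 ± 0.850), H2-Ob (5.09 ± 0.374), H2-DMb2 (5.03 ± 0.367) and Ciita (3.38 ± 0.534) were lower in CPM per kb. Ranges of neighbours in this order overlapped for H2-Eb1 and H2-DMa, and for H2-Ob and H2-DMb2. In the inhibitor group the order was the same except that H2-DMb2 stood before H2-Ob, with overlapping ranges (7.80 ± 1.14 and 7.41 ± 0.440 CPM per kb). H2-Eb1 and H2-DMa were apart there, at 87.4 ± 4.07 and 59.0 ± 1.62 CPM per kb.

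Ratios between the genes were taken within each library to see whether they changed by unequal amounts. With 3 libraries against 3, the exact two-sided permutation test cannot go below p = 0.1, so none of the 6 ratios could pass 0.05. H2-Ob stood at 0.0908, 0.109 and 0.0960 of the per-length level of H2-DMa in control libraries 1 to 3, and at 0.127, 0.118 and 0.131 in inhibitor libraries 1 to 3. These ranges did not overlap, and the log2 ratio was higher by 0.35 in the inhibitor group (exact permutation p = 0.1, adjusted over 6 ratios p = 0.2). For H2-Oa over H2-DMa the groups overlapped, and the difference in log2 ratio was 0.25 (exact permutation p = 0.2, adjusted p = 0.3). H2-DMb1 over H2-DMb2 went from 5.16, 4.66 and 4.17 in the controls to 3.89, 3.60 and 3.09 in the inhibitor libraries, a difference in log2 ratio of -0.40 (exact permutation p = 0.1, adjusted p = 0.2). That ratio rests on the uncertain split of reads between near-identical genes.

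The ratio of Cd74 to the mean of H2-Aa and H2-Ab1 was 3.12, 3.69 and 3.54 in the controls and 3.61, 3.50 and 3.34 in the inhibitor libraries. The groups overlapped, with a difference in log2 ratio of 0.02 (exact permutation p = 0.9, adjusted p = 0.9). H2-Ab1 over H2-Aa differed by 0.19 in log2 ratio, also with overlap (exact permutation p = 0.3, adjusted p = 0.36). H2-Eb1 over H2-Ab1 was lower in every inhibitor library, by 0.14 on average (a difference in log2 ratio of -0.14, exact permutation p = 0.1, adjusted p = 0.2).

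**Figure D3:**
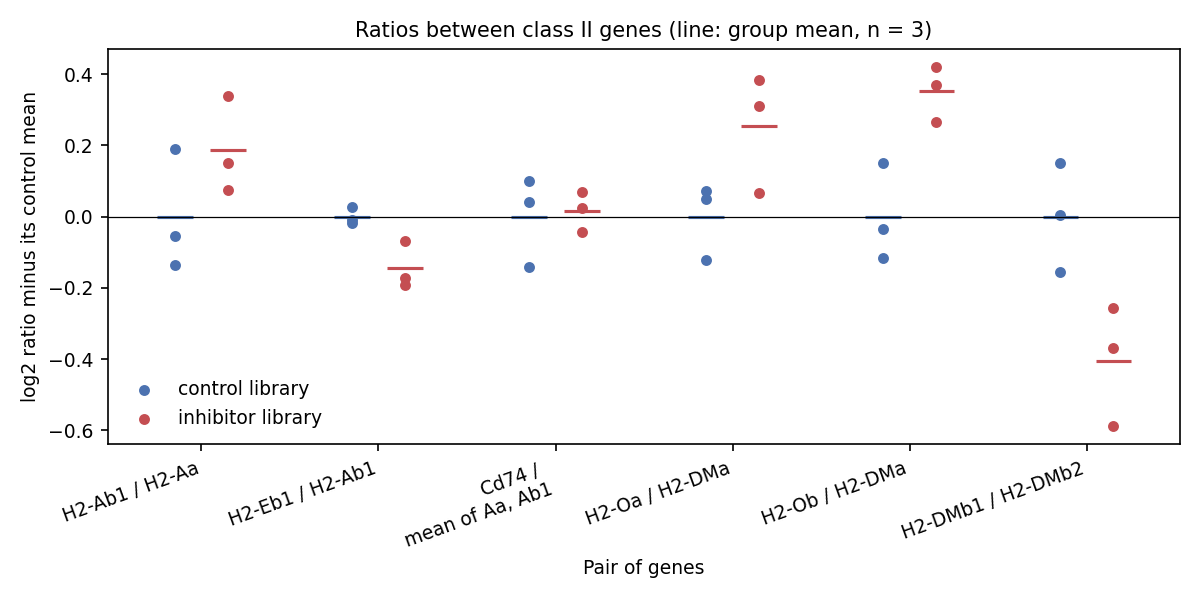
Log2 ratio of length-scaled counts of 6 pairs of class II genes in each library, each shown minus its control mean (line: group mean, 3 libraries per group). Cd74 against the I-A chains overlaps between groups, while H2-Ob over H2-DMa is higher, and H2-DMb1 over H2-DMb2 and H2-Eb1 over H2-Ab1 are lower, in all 3 inhibitor libraries.

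Of the 10 genes, 8 lie together in the class II region, a stretch of 224.3 kb on chromosome 17 (34092379 to 34316674). RefSeq symbols of that stretch in the files numbered 14, and 5 of the tested ones were not class II genes. These 5 are Brd2, a chromatin reader, and the class I presentation genes Psmb8 and Psmb9 (immunoproteasome subunits) and Tap1 and Tap2 (the peptide transporter), which lie between the class II genes. None of the 5 passed the threshold in edgeR's quasi-likelihood test, while 1 of them, Psmb9, had an unadjusted p under 0.05. DESeq2 and limma-voom also called none, each with 1 at an unadjusted p under 0.05. Tap1 and Tap2 had log2 changes of -0.01 ± 0.06 and 0.01 ± 0.07, Psmb8 -0.18 ± 0.08 and Psmb9 -0.19 ± 0.08 (edgeR quasi-likelihood adjusted p of at least 0.0688). Psmb9 passed as lower without control library 2 (edgeR adjusted p = 0.0481) and Psmb8 without control library 3 (edgeR adjusted p = 0.0442). The 8 class II genes of the stretch ranged from 0.19 to 0.78. The difference between the class II genes and their neighbours was not tested as such. H2-Eb2, a class II beta chain gene just beyond H2-Eb1 (34325503 to 34341410), went up, with a mean of 2.51 ± 0.709 CPM in the controls and 5.50 ± 0.992 CPM in the inhibitor group (± SD, n = 3), a log2 change of 1.13 ± 0.23 (edgeR quasi-likelihood adjusted p = 0.001).

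**Figure D4:**
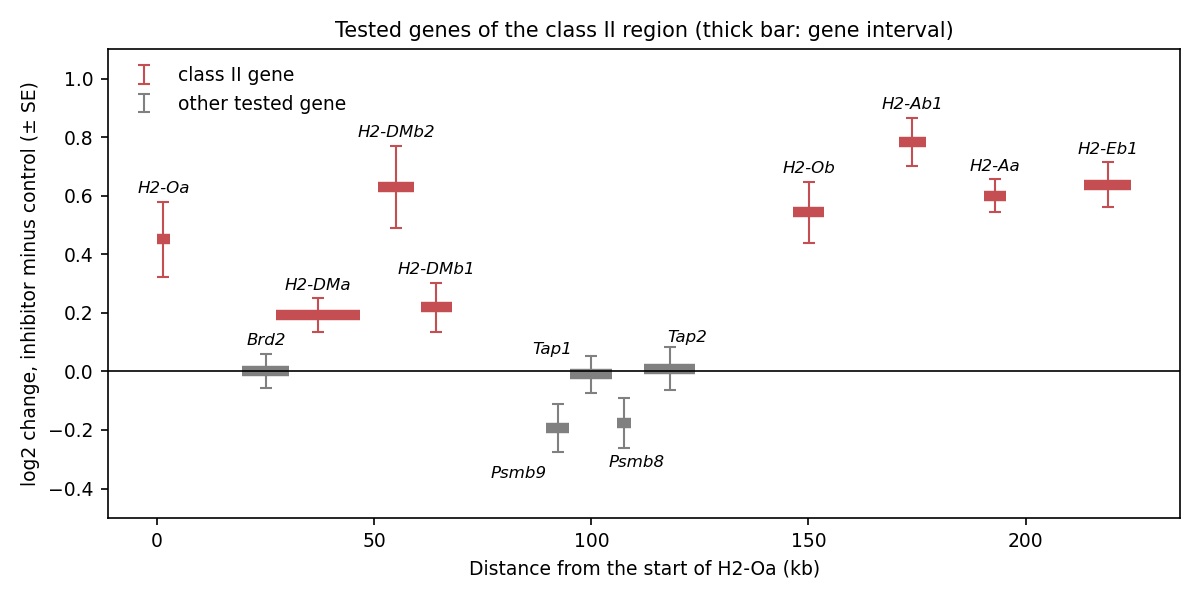
Log2 change (± SE) of the 13 tested genes of the class II region against distance from the start of H2-Oa in kb, with the thick bar as the gene's interval. The 8 class II genes lie between 0.19 and 0.78, and Brd2, Psmb8, Psmb9, Tap1 and Tap2, placed among them, between -0.19 and 0.01.

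Factors that act on class II promoters, listed with inducers such as interferon-gamma receptor chains and their kinases, lay on both sides of 0. The 20 listed, all tested, comprised 5 higher, 4 lower and 11 that did not pass, with a median log2 change of -0.02, where 40.5% of all tested genes passed and 20.4% were higher, shares close to those of this list. The subunits of RFX, which binds the X box, were singled out after their values were seen. Rfx5 was at 0.06 ± 0.07, Rfxank at 0.00 ± 0.09 and Rfxap at -0.08 ± 0.10 in log2 change, and none passed. Jak2, a kinase of the interferon-gamma receptor, rose from 117 ± 14.3 to 202.4 ± 5.69 CPM (log2 change 0.79 ± 0.08, edgeR quasi-likelihood adjusted p = 9.16e-07). Ifngr1, a chain of that receptor, fell (-0.38 ± 0.05), as did Irf1, a transcription factor it induces (-0.45 ± 0.08).

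Spib, a transcription factor of B cells and plasmacytoid dendritic cells, fell from 59.1 ± 6.63 to 30.9 ± 2.28 CPM (log2 change -0.93 ± 0.09, edgeR quasi-likelihood adjusted p = 6.99e-07). Irf8, which dendritic cells and monocytes need, rose by 0.24 ± 0.05 on the log2 scale, and Irf4 was among those lower. Both were chosen after their values were seen, as were the acetyltransferase genes Crebbp and Kat2b, which were higher. The kinase gene Jak1 (0.10 ± 0.05) and another acetyltransferase gene, Ep300 (0.15 ± 0.07), did not pass. Without control libraries 1 and 3 together, 3 of the 20 were higher.

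Genes that prepare antigen, handle class II dimers in endosomes or turn them over at the surface were mostly higher. The 14 tested comprised 10 higher, 2 lower and 2 that did not pass, with a median log2 change of 0.35. Of all tested genes 20.4% were higher. The surface turnover genes March1 (0.52 ± 0.10) and March8 (0.41 ± 0.06), chosen after their values were seen, were among those higher. Ctss, the cathepsin that trims the invariant chain in dendritic cells and B cells, rose from 299 ± 11.4 to 468.5 ± 10.4 CPM (log2 change 0.65 ± 0.05, edgeR quasi-likelihood adjusted p = 1.73e-07). Ctsl, a cathepsin with that role in thymic epithelium, rose by 1.06 ± 0.07, and Ctsd, an aspartic protease, by 0.84 ± 0.06. Ctsz, a carboxypeptidase of lysosomes, fell (-0.63 ± 0.07), as did the other lower gene, Ifi30 (-0.39 ± 0.08), a thiol reductase of antigen processing chosen after its values were seen. The lysosomal membrane genes Lamp1 (0.09 ± 0.05) and Lamp2 (0.04 ± 0.06) did not pass.

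Costimulatory and checkpoint ligands, which antigen-presenting cells show beside class II, were mostly higher too. The 9 tested comprised 7 higher, 1 lower and 1 that did not pass, with a median log2 change of 0.51. Of all tested genes 20.4% were higher. Cd40, the receptor for T cell help, rose from 4.83 ± 0.315 to 13.4 ± 1.70 CPM (log2 change 1.47 ± 0.14, edgeR quasi-likelihood adjusted p = 7.27e-07). Cd83, which stabilises class II at the surface, rose by 1.01 ± 0.07, and Cd80, a ligand of CD28, by 0.89 ± 0.11. Tnfsf9, the ligand of 4-1BB, fell (-0.79 ± 0.14), and Pdcd1lg2, a ligand of PD-1, did not pass (-0.20 ± 0.26).

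Markers of cell types that carry class II moved in different directions beside these genes. Among all tested genes 40.5% passed in either direction and 20.4% passed as higher. Of 8 mature dendritic cell markers, 6 were tested, 5 were higher and 1 did not pass, and their summed level went from 128.8 to 150.5 CPM in the controls to 695.3 to 708.7 CPM in the inhibitor libraries. The chemokine receptor gene Ccr7 (48.1 ± 3.02 against 224.9 ± 2.90 CPM), the actin-bundling gene Fscn1 (40.3 ± 5.60 against 232.7 ± 8.80 CPM) and the chemokine gene Ccl22 (28.9 ± 2.42 against 151.4 ± 1.45 CPM) led this sum. Of the least abundant of the list, chosen after their values were seen, Lamp3 had 0 counts in all controls and 2 to 4 in the inhibitor libraries, and Ccl17 0 to 7 counts in all libraries. Of 12 conventional dendritic cell markers, 5 were higher, 4 lower and 3 did not pass, with a summed level of 876.2 to 892.3 CPM in the controls and 780.2 to 806.6 CPM in the inhibitor libraries, so the sum was lower although the median log2 change of the 12 was 0.31. Their most abundant genes were Sirpa (-0.33 ± 0.05), Wdfy4 (-0.16 ± 0.06) and Itgax (0.43 ± 0.10, log2 changes). The other higher genes, chosen after their values were seen, were Batf3 (1.68 ± 0.42), Id2 (1.15 ± 0.08), Zbtb46 (0.98 ± 0.16) and Dpp4 (0.36 ± 0.13). Batf3 had only 4 to 38 counts a library. The other lower genes, chosen likewise, were Clec10a (-1.01 ± 0.09) and Cd209a (6.92 ± 1.80 against 3.44 ± 0.316 CPM). The part of these cells in the rise of the class II genes was not tested.

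Among 9 tested markers of plasmacytoid dendritic cells none was higher, 5 were lower and 4 did not pass, with sums of 660.1 to 808.1 and 635.6 to 637.8 CPM. Runx2 (0.15 ± 0.07) and Tcf4 (0.08 ± 0.07) did not pass and Bst2 fell (-0.31 ± 0.07). The other 4 lower genes, chosen after their values were seen, were Ccr9 (66.9 ± 14 against 9.8 ± 1.61 CPM, log2 change -2.78 ± 0.17), Ly6d (-0.83 ± 0.12), Siglech (-0.60 ± 0.11) and Pacsin1 (-0.54 ± 0.18). Defining B cell markers, chosen after their values were seen, were at or near 0: Ms4a1 had 0 to 2 counts a library, Cd79a 0 to 8 and Vpreb3 0. The summed level of the 12 B cell markers was 25.7 to 27.5 CPM in the controls and 14.6 to 15.3 CPM in the inhibitor libraries, mostly from Cd79b, which fell (-0.85 ± 0.12). Of the 5 tested, Cd22 (-1.20 ± 0.21) and Pax5 (-1.57 ± 0.43) fell too, and 2 did not pass. The 3 CD3 chain genes of T cells, also chosen after their values were seen, had 0 or 1 count a library. Of the 3 T and NK cell markers tested, Nkg7 and Cd4 were lower and Cd8a did not pass, with sums of 26.0 to 29.4 and 18.28 to 21.01 CPM. Of 12 monocyte and macrophage markers, 2 were higher, 4 lower and 6 did not pass, with sums of 1719 to 1782 and 1367 to 1404 CPM. Ly6c2 fell by 0.94 ± 0.06 on the log2 scale, while Csf1r (0.05 ± 0.05) and Ccr2 (0.00 ± 0.07) did not pass. Of 10 genes listed as HSC markers, 3 were higher, 3 lower and 4 did not pass, with sums of 1094 to 1164 and 1150 to 1189 CPM, and Kit (0.02 ± 0.06), Cd34 (0.10 ± 0.05) and Flt3 (0.11 ± 0.06) did not pass. That list includes genes that progenitors also express, Kit, Cd34, Flt3 and Cd48 among them. Its counts and sums are therefore not a measure of HSCs alone.

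**Figure D5:**
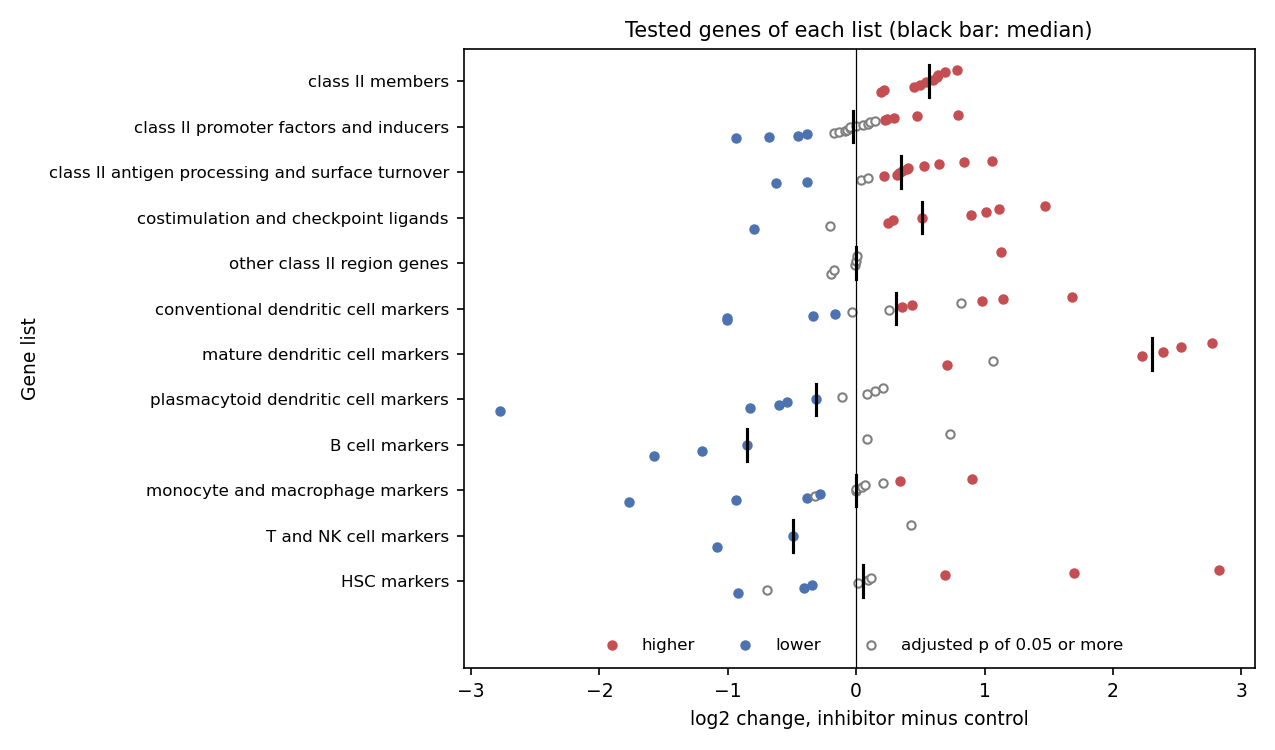
Log2 change, inhibitor minus control, of the tested genes of each list (red: higher, blue: lower, white: adjusted p of 0.05 or more), with the median as a black bar. The class II genes lie between 0.19 and 0.78, the promoter factors and inducers on both sides of 0, and mature dendritic cell markers have a median of 2.31.

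The genes whose profile over the 6 libraries was most like the mean of H2-Aa, H2-Ab1, H2-Eb1 and Cd74 were sought among 11176 other genes with a mean of at least 50 counts. Likeness was the root mean square distance between log2 CPM centred on their own means. The nearest were Gsn (distance 0.0349), Pfkfb3 (0.0392), H2-Q7 (0.0422), Psrc1 (0.0433) and Maged1 (0.0441). The 4 class II genes themselves lay at 0.0598 (H2-Eb1) to 0.0928 (H2-Ab1) from their own mean, H2-Ob at 0.115 and H2-DMa, the farthest of the 10, at 0.251. H2-Q7 belongs to a family of near-identical class I genes, so its counts are uncertain.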

How the data were processed

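The members and gene lists were chosen with earlier results of these data known. RNA had been extracted with Trizol and libraries made with an mRNA kit, per the labels' protocols. The deposited read counts are raw counts per RefSeq gene symbol, summed by the authors over a symbol's transcripts, per the file headers. Deposited RPKM values, per the file headers, were used only as an alternative for ratios. The library totals they imply exceeded the counts by 0.22 to 8.68%. The submitters' processing notes name mm10 and bcl2fastq 2.20. Which aligner and counter were used, and whether with strand, is not given in the sources used here. The deposited maximum transcript length, another column per the file headers, gave levels per kb.

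Genes were kept by filterByExpr (minimum count 10, minimum total 15), scaled by TMM and fitted in edgeR 4.0.16 (R 4.3.3; robust quasi-likelihood F test), with p-values adjusted by Benjamini-Hochberg at 0.05, on all 6 libraries with group as the only term. SE is the log2 change divided by the square root of the F statistic. The script was tested on simulated data. Alternatives were RLE factors, other filters, a replicate block, leaving out libraries, DESeq2 1.42.0, limma-voom (limma 3.58.1), other thresholds and library sizes without Rn45s and the 50 most abundant genes. Ratios were compared by exact permutation. Named genes were all members, in each pathway list the 4 smallest p past the threshold and up to 2 most abundant not past it, the 3 most abundant of each marker list, and the 5 nearest profiles. Genes named for their position (neighbours in the class II region, overlapping genes) and Rn45s come beside these, and others are said to be chosen after their values were seen. Promoters and miRNA came from RefSeq (GRCm38.p6), 3′ UTRs and coding sequences from GENCODE M21 (GRCm38), read with Python 3.11.15, and coding sequences were aligned with Biopython 1.88. The files held 0 columns of samples of other series. Some listed genes are not reported by name here.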

Additional observations from a re-analysis of the deposited data

How the results depend on the processing

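Over 140 refits of single genes (10 genes, 14 settings), the class II genes kept their direction in all, with log2 changes of 0.17 to 0.89, and 126 stayed past the threshold. The 14 that did not were 7 of H2-DMb1, 4 of H2-Oa, 2 of H2-DMa and 1 of Ciita. The number of class II genes that passed as higher was 9 with DESeq2 or no filter, and 0 when a log2 change of at least 1 was asked for, which also left 853 of all genes and 5 of the pathway genes. With 1 library left out, 7 to 10 class II genes, 4058 to 5692 of all genes and 28 to 33 pathway genes passed, against 10, 5259 and 30 with all libraries. The difference in log2 ratio of Cd74 to the I-A chains changed sign without control library 1 (-0.0544) and without inhibitor library 1 (-0.00957) and ranged up to 0.0674 with other libraries left out, while the other 5 ratios kept their direction. The labels do not say whether replicate numbers pair the libraries, and 3 libraries a group are too few to settle it. Same-numbered libraries' deviations from their group means correlated at 0.06, 0.01 and 0.04, and differently numbered ones at -0.05 to 0.02. Control library 2 was not most like its own number. With the replicate number as a block, 10 class II genes, 5673 of all genes and 32 pathway genes passed, and Psmb9 passed as lower (edgeR adjusted p = 0.045). Depth limits H2-DMb2, H2-Oa and H2-Ob most, with 133 to 402 counts a library.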
